A study of Mus musculus with 30 samples.

Results

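The Bcl2 family and its caspase partner decide whether a cell that loses a survival signal lives or dies. Pro-survival members such as Bcl2, Bcl2l1 (Bcl-xL), Mcl1 and Bcl2a1b (A1) bind and hold the pore formers Bax and Bak1, and BH3-only proteins such as Bid and Bcl2l11 (Bim) release them so that the mitochondrial outer membrane is opened. Casp8, the initiator caspase of the death receptors, cuts Bid and so joins both routes, and it also holds necroptosis in check. Microglia, the resident macrophages of the brain, need signals through the receptor encoded by Csf1r, whose ligands are Il34 and Csf1, to survive. The members described here were the 9 rows of the deposited count table whose gene symbol was Mcl1, Bcl2, Bcl2l1, Bcl2a1b, Bid, Bcl2l11, Bax, Bak1 or Casp8, of 51752 genes in all, and each symbol was listed once.

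The 30 RNA libraries came from 15 mice, divided over 2 experiments. In the genotype experiment, 3 mice labelled IL34 KO were compared with 4 labelled IL34 Het, so the controls of that experiment carry 1 mutant copy of the gene. In the antibody experiment, 4 wild-type mice given a blocking antibody against IL34 (a-IL34) were compared with 4 given the control antibody a-gp120. Whole forebrain of 1 hemisphere made up the first library of a mouse, and cells isolated from the other hemisphere with CD11b magnetic beads, called the isolate here, made up the other. Strain, age, how the IL34 allele was made, antibody dose and schedule are not given in the sources used here. The Het and a-gp120 arms each held 2 males and 2 females, the KO arm 1 male and 2 females, and the a-IL34 arm 3 males and 1 female. Animals are named by their arm and number, and the same number in both experiments is not the same mouse.

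Library depth lay between 15.1 and 75.2 M counts (M, mega). Levels are counts per M counts (CPM) scaled by TMM over the 15 libraries of a tissue, and CPM is not divided by gene length. Csf1r in forebrain was at 37.3% of Het in KO and at 40.6% of a-gp120 with a-IL34, and Il34 RNA in forebrain was at 35.3% of Het in KO. In KO isolates Il34 was at 82.7% of Het (5.15 to 6.67 CPM against 4.89 to 9.82 CPM), with overlapping arms and no call (edgeR adjusted p = 0.493). Its tissue difference passed in the fit without a term for the animal (log2 1.27, SE 0.288, edgeR adjusted p = 0.0423). Whether that call holds with the animal as a block or with an animal left out was not tested. The isolates were rich in microglia but held other cells too. The summed level of 9 microglia markers was 10050 to 18010 CPM in Het isolates against 227.9 to 257.8 CPM in Het forebrain. The summed level of 6 astrocyte markers was 2915 to 10250 CPM in Het isolates and 6665 to 7367 CPM in Het forebrain. In KO isolates the microglia sum was lower, at 3803 to 4325 CPM, and the astrocyte sum was higher, at 11660 to 14330 CPM. With a-gp120 the microglia sum was 12960 to 17140 CPM and with a-IL34 it was 5277 to 8165 CPM, while the astrocyte sums were 4271 to 16910 CPM and 9137 to 16910 CPM. In these bulk samples fewer cells of a type and less RNA per cell cannot be told apart.

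Bcl2a1b is 1 of a cluster of near-identical copies on mouse chromosome 9, and a short read from 1 copy can match another. Its coding sequence of 516 bases differed from that of Bcl2a1a at 11 bases and from that of Bcl2a1d at 6. The first 120 coding bases of the 3 copies are printed because they make plain how little separates the genes, with the 7 positions at which the copies differ in capitals. They lie in GRCm38 at chr9:89199360-89199479 (plus strand), chr9:88957051-88957170 (plus strand) and chr9:88731600-88731719 (minus strand), respectively.
Bcl2a1b: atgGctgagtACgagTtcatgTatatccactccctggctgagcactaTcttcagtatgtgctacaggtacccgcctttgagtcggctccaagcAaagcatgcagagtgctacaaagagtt
Bcl2a1a: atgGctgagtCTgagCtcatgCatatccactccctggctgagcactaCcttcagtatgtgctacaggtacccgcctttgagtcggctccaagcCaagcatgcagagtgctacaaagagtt
Bcl2a1d: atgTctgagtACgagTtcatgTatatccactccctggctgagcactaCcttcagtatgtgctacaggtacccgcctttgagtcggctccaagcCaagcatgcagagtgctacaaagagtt

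The copies also share the sequence before their start sites. RefSeq promoters of GRCm38.p6 were found for all 9 members, Bcl2l1 and Bcl2l11 with several start sites each, and were searched on both strands, in the 250 bases before the start, for GAGGAAGT, the core bound by the myeloid ETS factor PU.1. The same search covered AP-1 (TGACTCA), FOXO (GTAAACA) and an NF-kB motif. Windows of 60 bases around the PU.1 match of the 3 copies are printed because these genes were nearly restricted to the isolates, with the match in capitals. They lie at chr9:89199099-89199158 (plus strand), chr9:88956790-88956849 (plus strand) and chr9:88731921-88731980 (minus strand).
Bcl2a1b: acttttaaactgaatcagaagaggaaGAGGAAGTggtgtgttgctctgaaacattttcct
Bcl2a1a: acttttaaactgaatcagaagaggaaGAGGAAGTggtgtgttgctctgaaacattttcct
Bcl2a1d: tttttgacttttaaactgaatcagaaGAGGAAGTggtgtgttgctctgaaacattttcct

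This motif was present in 2.44% of 32851 promoters. Among the members it matched Bcl2a1b, 148 bases before the start, and, as its reverse complement, Bak1, 22 bases before it. It also matched a further, less similar copy, Bcl2a1c, 214 bases before the start. Bcl2a1c had only 0 to 4 counts per isolate library, so the motif was also present before a copy with almost no reads there. The FOXO motif, found in 3.17% of promoters, matched only Bcl2l11 among the members, 227 bases before the start. AP-1, found in 4.46%, and NF-kB, found in 0.14%, had no match in these windows of the members. The windows show letters, not binding.

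In control animals 8 of the 9 genes were higher in the isolates than in whole forebrain, and Bcl2 was lower. The contrast used the 8 Het and a-gp120 animals, with TMM scaling of its own, and edgeR's quasi-likelihood F test with Benjamini-Hochberg adjustment at 0.05. It held terms for experiment and sex but none for the animal, so both libraries of a mouse were treated as separate. All 9 members passed, where 84.1% of the 18752 genes tested did (40.8% higher and 43.3% lower in the isolates), so passing alone says little about the members and the sizes carry the description. Bcl2a1b met the filter on low counts only through the isolates, so its being higher there was set by that filter, also in the members' median. The median log2 fold change was 2.06 over the members and -0.04 over all genes.

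Casp8 was the most enriched of the 9 members apart from Bcl2a1b, which had few forebrain counts. It averaged 145 ± 23 CPM (SD, n = 8) in the isolates and 4.63 ± 0.611 CPM (SD, n = 8) in forebrain, and no isolate (lowest 114 CPM) came near a forebrain library (highest 5.33 CPM). This was a log2 fold change of 4.98 (SE 0.11), a 31.6-fold difference. For comparison, Csf1r was 72.1-fold higher in the isolates. Mcl1, the short-lived pro-survival protein on which many myeloid cells depend, averaged 790 ± 249 CPM (SD, n = 8) against 73.4 ± 3.88 CPM (SD, n = 8), and its log2 fold change was 3.41 (SE 0.188). Bcl2l11, the BH3-only protein that is switched on when growth factor is withdrawn, had a log2 fold change of 3.85 (SE 0.221). Its isolate level ran from 49.7 to 174 CPM over the same animals, a wider spread than that of Casp8. Bid, the target of Casp8, had a log2 fold change of 2.06 (SE 0.102), from 8.02 ± 0.939 to 33.5 ± 6.04 CPM (SD, n = 8 each).

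The pore formers and Bcl2l1 were only modestly enriched. The log2 fold change was 1.29 (SE 0.112) for Bax, 1.20 (SE 0.112) for Bcl2l1 and 1.13 (SE 0.0918) for Bak1. Bcl2 went the other way, from 31.9 ± 3.01 CPM (SD, n = 8) in forebrain to 24.4 ± 6.07 CPM (SD, n = 8) among isolates. Its log2 fold change was -0.39 (SE 0.124, adjusted p = 0.00851 by edgeR), and the ranges of the tissues overlapped, from 28.8 to 37.9 CPM and from 17.5 to 36.5 CPM. Bcl2a1b had a log2 fold change of 5.18 (SE 0.333), but it had only 33 counts over all 15 forebrain libraries, so the size of this difference rests on very few forebrain reads. Its copies Bcl2a1d and Bcl2a1a, with log2 fold changes of 7.80 (SE 0.375) and 6.39 (SE 0.329), had 0 to 4 and 0 to 9 counts per forebrain library, so that these sizes too rest on very few reads. Both copies also met the filter on low counts only through the isolates. The astrocyte sum was 2915 to 10250 CPM in Het isolates and 6665 to 7367 CPM in Het forebrain, so the enrichment of a gene that microglia express is that of the mixed isolate, and the part of other cells in it was not tested.

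**Figure D1:**
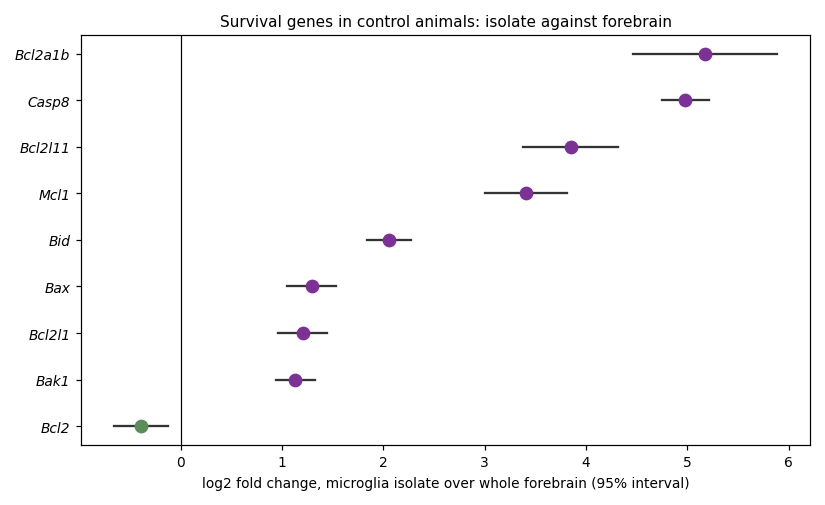
Log2 fold change of each survival gene, microglia isolate over whole forebrain, in the 8 control animals; points are edgeR estimates and bars 95% intervals. Bcl2a1b and Casp8 lie near 5, Bcl2l11 and Mcl1 between 3 and 4, Bid near 2, Bax, Bcl2l1 and Bak1 between 1 and 2, and Bcl2 below 0.

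Divided by the length of their exons, the members changed order between tissues. Mcl1 had the highest level per kilobase of exon in both, at 21.5 CPM per kb of exon for forebrain and 231 CPM per kb for the isolates. Casp8 moved from rank 7 (1.6 CPM per kb) to rank 2 (50.2 CPM per kb), and Bcl2 from rank 5 (3.49 CPM per kb) to rank 9 (2.66 CPM per kb). Bcl2l1 was at rank 2 in forebrain (13.1 CPM per kb) and rank 3 in the isolates (30.2 CPM per kb). The deposited gene lengths are whole spans, introns included, and whether intronic reads were counted was not tested. By span Casp8 went from rank 8 to rank 5 and Bcl2 from rank 7 to rank 9. The span of Bcl2 is 176097 bases and its exons 9157 bases, the widest such gap among the members.

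The pathway lists are given by counts, where 40.8% of all genes were higher in the isolates and 84.1% passed in either direction. All 8 death receptor and adaptor genes passed as higher, among them Cflar (log2 fold change 3.16, SE 0.0814), which encodes the Casp8 inhibitor c-FLIP, and Tnfrsf1a (4.14, SE 0.127), a TNF receptor. All 3 necroptosis genes did so too, including Ripk3, the kinase that Casp8 restrains (6.00, SE 0.294). Ripk3 was left out by the filter on low counts in forebrain of the genotype experiment. Of 5 other BH3-only genes tested, 4 were higher, such as Pmaip1 (5.78, SE 0.242) and Bmf (3.21, SE 0.106), and Hrk, known from neurons, was lower (-1.6, SE 0.23). Of 7 genes of mitochondrial release and the apoptosome, 4 were higher, 2 lower and 1 did not pass. Of 5 IAP inhibitors 4 were higher, of 6 p53 pathway genes 4 and of 17 Csf1r signalling genes 13, with 0, 0 and 4 lower. Of 4 tested Bcl2-like genes 1 was higher, 1 lower (Bcl2l15, -2.4, SE 0.303) and 2 did not pass. The median log2 fold changes were 2.01 for the death receptor list, 3.12 for necroptosis, 3.15 for the BH3-only list, 0.34 for mitochondrial release, 0.35 for IAP inhibitors, 1.00 for the p53 pathway, 1.08 for Csf1r signalling and -0.13 for the Bcl2-like genes, against -0.04 over all genes.

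In isolates of KO mice Bid and Casp8 were lower than in Het isolates, at 39.6% and 41.8% of the Het level. No other member passed the test, although 6 more had lower estimates and Bcl2 a higher one. Passing genes made up 5.37% of the 18185 genes tested, nearly all of them lower (5.22% of genes), and the members' count was 2 of 9. The median log2 fold change was -0.93 over the members and 0.02 over all genes.

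Bid stood at 26.0, 30.1, 35.9 and 29.1 CPM in the isolates of Het animals 1, 20, 21 and 23. In those of KO animals 3, 6 and 24 it stood at 11.9, 12.7 and 11.0 CPM. Every KO library was below every Het library, and the KO values lay close together. Fitted over these libraries, the log2 fold change was -1.34 (SE 0.144, 95% interval -1.68 to -0.99, edgeR adjusted p = 0.0136).

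Casp8 was at 109.9, 134, 170 and 129 CPM in the isolates of the same Het animals, in the order above. It was at 58.6, 60.3 and 48.3 CPM in the KO isolates. Here too the arms did not overlap. Its log2 fold change was -1.26 (SE 0.173, 95% interval -1.67 to -0.85, edgeR adjusted p = 0.0161).

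Bcl2, the pro-survival member found more in forebrain than in isolates, was at 28.1, 24.4, 20.1 and 22.8 CPM in the Het isolates and at 33.7, 39.6 and 34.3 CPM in the KO isolates. All KO libraries were above all Het libraries. The log2 fold change of 0.59 (SE 0.155) did not pass (edgeR adjusted p = 0.0803). In all 5 members had arms that did not overlap, with Bid, Casp8, Bcl2l1 and Bcl2a1b (4 genes) lower in KO and Bcl2 higher, where 38.7% of all genes had arms that did not overlap (19.4% lower, 19.3% higher).

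The other pro-survival genes had lower estimates in KO isolates but a wide spread among Het animals. Mcl1 was at 330.1, 577, 1003 and 699 CPM in Het animals 1, 20, 21 and 23 and at 309, 354 and 363 CPM in KO animals 3, 6 and 24. The library of Het animal 1 thus lay among the KO libraries, and that of Het animal 21 was the highest of the 7. Its log2 fold change was -0.93 (SE 0.362, edgeR adjusted p = 0.139). Bcl2l1 was at 98.8, 101, 182 and 154 CPM in Het and at 74.1, 70.7 and 93.5 CPM in KO isolates, a log2 fold change of -0.74 (SE 0.258, edgeR adjusted p = 0.122) with arms that did not overlap. Bcl2a1b had 25 to 100 counts in Het and 19 to 50 counts in KO isolates. Its arms, 1.44 to 3.37 CPM and 0.854 to 1.15 CPM, did not overlap, and its log2 fold change was -1.14 (SE 0.342, edgeR adjusted p = 0.0991). Its copies had smaller estimates, -0.12 (SE 0.303) for Bcl2a1d and -0.33 (SE 0.213) for Bcl2a1a, with overlapping arms.

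Bcl2l11 showed the same spread as Mcl1 among controls. It was at 47.9, 77.0, 151 and 119.5 CPM in Het and at 38.9, 42.3 and 61.3 CPM in KO isolates, so that Het animal 1 lay inside the KO range. Its log2 fold change was -1.08 (SE 0.401, edgeR adjusted p = 0.132). The pore formers differed less. Bax ran from 18.3 to 28.5 CPM in Het and from 14.4 to 18.5 CPM in KO (log2 fold change -0.47, SE 0.197, edgeR adjusted p = 0.151). Bak1 ran from 28.5 to 35.4 CPM and from 28.6 to 31.6 CPM, the closest arms of the set (log2 fold change -0.07, 95% interval -0.33 to 0.19).

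**Figure D2:**
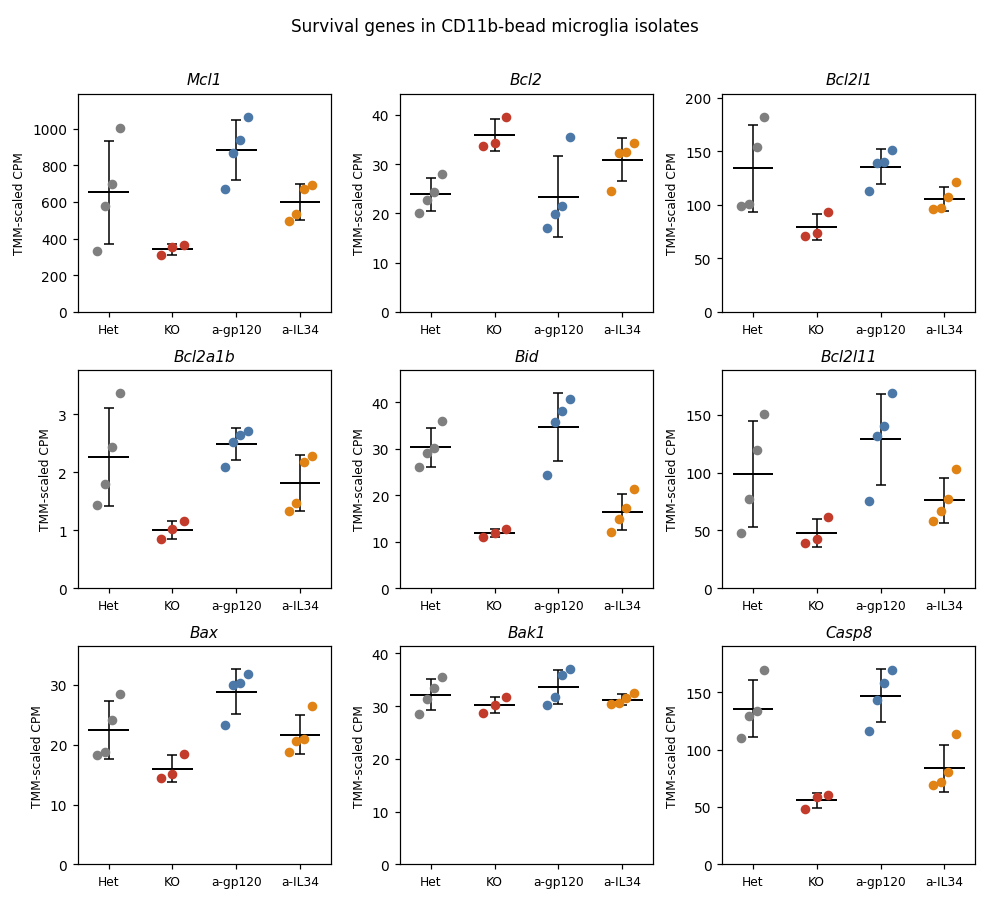
TMM-scaled CPM of the 9 genes in each microglia isolate (points) by arm, with the arm mean (line) and SD (bar). Bid and Casp8 of the 3 KO isolates lie below all 4 Het isolates, Bcl2 of the KO isolates lies above them, and Mcl1 and Bcl2l11 spread widely among Het isolates.

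The calls of Bid and Casp8 in KO isolates depended on which animals were in the fit. On simulated data the fit of this comparison also gave a share of false calls above the adjusted limit. When each of the 7 animals was left out in turn, both genes passed only in the 2 fits without Het 1 or Het 21, with adjusted edgeR p from 0.00488 to 0.168 for Bid and from 0.00708 to 0.175 for Casp8. Their log2 fold changes stayed between -1.38 and -1.27 and between -1.33 and -1.16. The number of members that passed went from 2 to 7 without Het 1, where 31.5% of all genes passed, and to 0 without Het 20, Het 23 or any 1 of the KO animals. With DESeq2 5 members passed, where 21.4% of genes did.

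The microglia marker sum moved with these genes. In the isolates its median was at 35.6% of Het in KO, and all 9 measured markers passed as lower. The astrocyte sum was at 217% of Het and the neuron sum at 209% by their medians, while 0 of 6 astrocyte and 0 of 7 neuron genes passed the test. The oligodendrocyte lineage sum was at 149% of Het (2962 to 9754 CPM in Het, 7548 to 17570 CPM in KO), the proliferation sum at 182% (85.4 to 134 CPM, 133 to 225 CPM) and the choroid plexus sum at 52.9% (1617 to 3851 CPM, 1128 to 3032 CPM), with 0 of 6 genes passing in each list. The sum of 9 genes induced by cell isolation and early signalling was 6680 to 12440 CPM in Het and 3364 to 3864 CPM in KO isolates, and 4 of the 9 passed as lower. The sum of 8 neutrophil and monocyte markers was 35.1 to 47.9 CPM in Het and 40.4 to 64.3 CPM in KO isolates. That of 6 border-associated macrophage markers had a median at 98.6% of Het (592 to 733 CPM in Het, 302 to 643 CPM in KO). Het animal 1 had the lowest microglia sum and the highest astrocyte sum of its arm (10250 CPM), and Het animal 21 the reverse (18010 CPM of microglia markers and 2915 CPM of astrocyte markers). The part of these differences in the members' values was not tested.

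Csf1r was itself lower in KO isolates, at 33.6% of Het (log2 fold change -1.57, SE 0.301, edgeR adjusted p = 0.0346). Set against Csf1r within the same library, Casp8 and Bid were not lower in KO isolates. The fall of Csf1r was larger than that of either gene, so this follows from the fold changes and is no separate evidence. The log2 ratio of Casp8 to Csf1r counts was -4.82 ± 0.133 (SD, n = 4) in Het and -4.53 ± 0.147 (SD, n = 3) in KO. That of Bid to Csf1r was -6.98 ± 0.18 (SD, n = 4) and -6.75 ± 0.0644 (SD, n = 3). For both ratios 2 KO libraries lay above every Het library and 1 lay inside the Het range. In forebrain, where Csf1r was lower too, the Casp8 ratio was -3.43 ± 0.0434 (SD, n = 4) in Het and -2.40 ± 0.373 (SD, n = 3) in KO. The Bid ratio in forebrain was -2.52 ± 0.197 and -1.04 ± 0.144. The log2 ratio of Bcl2 to Bax, often read as a balance of survival and death, was 0.10 ± 0.495 (SD, n = 4) in Het and 1.17 ± 0.285 (SD, n = 3) in KO isolates. In forebrain it was 1.47 ± 0.131 and 1.49 ± 0.132. The more abundant Mcl1 and Bcl2l1 went the other way against Bax. In isolates Mcl1 to Bax was 4.78 ± 0.418 in Het and 4.42 ± 0.173 in KO. Bcl2l1 to Bax was 2.55 ± 0.144 and 2.31 ± 0.0238, so the ratio of Bcl2 to Bax alone does not give such a balance. These ratios are given as values without a test.

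**Figure D3:**
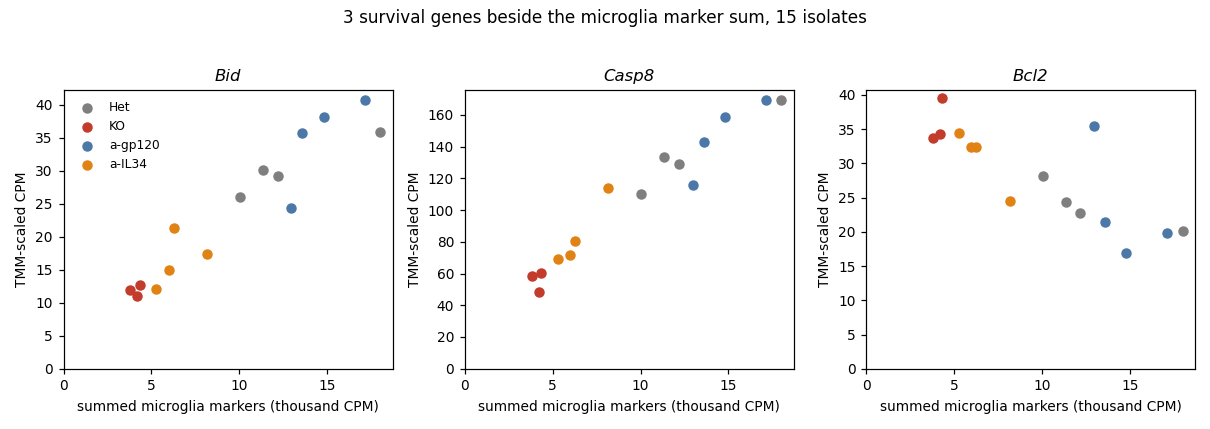
TMM-scaled CPM of Bid, Casp8 and Bcl2 (vertical) beside the summed level of 9 microglia markers (horizontal) in each of the 15 isolates, coloured by arm. KO and a-IL34 isolates all lie to the left of the control isolates, and are lower than all of them for Bid. For Casp8, a-IL34 animal 11 (114 CPM) lies above Het animal 1 (109.9 CPM), and for Bcl2 an a-gp120 isolate (35.5 CPM) and Het animal 1 (28.1 CPM) lie above a-IL34 animal 11 (24.5 CPM).

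Among the neighbouring pathway lists in KO isolates, Bmf was the 1 of 6 other BH3-only genes that passed (log2 fold change -1.0, SE 0.116, edgeR adjusted p = 0.0136). It encodes a BH3-only protein tied to the cytoskeleton. Cflar was the 1 of 8 death receptor and adaptor genes that passed (-0.77, SE 0.142, edgeR adjusted p = 0.0316). No gene passed among the 2 tested Bcl2a1 copies, 4 other Bcl2-like genes, 5 IAP inhibitors, 7 mitochondrial release genes, 3 necroptosis genes and 6 p53 pathway genes by edgeR, of which 0, 0, 2, 3, 2 and 1 were lower at an unadjusted p under 0.05, as were 18.2% of all genes. Of 17 genes of Csf1r survival signalling 6 passed as lower, where 5.22% of all genes did, and Csf1r itself is among them. Pik3cd (-1.25, SE 0.149) and Pik3cg (-1.28, SE 0.204), which encode PI3-kinase catalytic subunits of leukocytes, passed too. So did Tyrobp (-1.26, SE 0.154), the adaptor DAP12, and Inpp5d (-1.52, SE 0.21), the phosphatase SHIP1. The median log2 fold changes were -0.95 for the BH3-only list, -0.46 for death receptors, -0.65 for Csf1r signalling and -0.61 for necroptosis, against 0.02 over all genes. They were -0.35 for the p53 pathway, -0.22 for the Bcl2a1 copies, -0.16 for IAP inhibitors, -0.15 for mitochondrial release and 0.18 for the other Bcl2-like genes.

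In isolates of the antibody experiment no member passed (edgeR), where 0.626% of 17570 genes did, and the estimates again were lower for 8 members and higher for Bcl2. At an unadjusted p under 0.05, 6 members were lower, where 25.9% of genes passed that limit in either direction (15.3% lower). DESeq2 called 2 members, Bid and Casp8, and 11.5% of genes. The median log2 fold change was -0.41 over the members.

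Bid was at 40.7, 35.7, 38.2 and 24.3 CPM in the isolates of a-gp120 animals 1, 7, 8 and 15. It was at 21.3, 12.1, 17.3 and 15.0 CPM in those of a-IL34 animals 2, 10, 11 and 24. The arms did not overlap, and a-gp120 animal 15 was nearest to the treated libraries. The estimated log2 fold change was -1.07 (SE 0.224, 95% interval -1.59 to -0.56, edgeR adjusted p = 0.065).

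Casp8 was at 169, 143, 158 and 116 CPM with a-gp120 and at 80.6, 69.0, 114 and 71.6 CPM with a-IL34, in the same order of animals. These arms did not overlap either, but a-gp120 animal 15 and a-IL34 animal 11 lay close to each other. Casp8 had a log2 fold change of -0.76 (SE 0.19, edgeR adjusted p = 0.09). Bid and Casp8 were 2 members with lower arms that did not overlap, where 13.1% of all genes had such arms.

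Bcl2 was at 19.8, 21.4, 17.0 and 35.5 CPM with a-gp120 and at 32.4, 34.4, 24.5 and 32.4 CPM with a-IL34. The library of a-gp120 animal 15 was the highest of all 8, and the other 3 controls were below every treated library. Bcl2 had a log2 fold change of 0.43 (SE 0.255, edgeR adjusted p = 0.277). Mcl1 was at 1064, 867, 938 and 669.8 CPM and at 670.4, 495, 694 and 532 CPM (log2 fold change -0.54, SE 0.197, edgeR adjusted p = 0.163). Bcl2l11 was at 139.8, 131, 169 and 75.1 CPM and at 76.8, 66.4, 103 and 57.9 CPM (log2 fold change -0.70, SE 0.27, edgeR adjusted p = 0.172). For both, a-gp120 animal 15 lay inside the treated range and the other 3 controls above it.

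The remaining members had smaller estimates with overlapping arms. The log2 fold change was -0.41 (SE 0.145) for Bax, -0.36 (SE 0.128) for Bcl2l1, -0.41 (SE 0.25) for Bcl2a1b and -0.12 (SE 0.0916) for Bak1. Without a-gp120 animal 15, 7 members passed, all but Bak1 and Bcl2a1b, where 40.4% of all genes did, with Bid at an adjusted edgeR p of 0.00549 and Casp8 at 0.00595. Without a-IL34 animal 11, the only female of its arm, Casp8 alone passed, where 3.02% of genes did. In the other fits that left out 1 animal none did. The isolate of a-gp120 animal 15 had an astrocyte sum of 16910 CPM, against 4271 to 8440 CPM in the other controls, and the lowest microglia sum of its arm (12960 CPM). Between arms the median microglia sum was at 43.2% of a-gp120, and 5 of 9 microglia markers passed as lower. The median astrocyte sum was at 211%, the neuron sum at 216%, the oligodendrocyte lineage sum at 226% and the isolation-induced sum at 66.5%. The sum of 6 border-associated macrophage markers was at 57.5%, with 424 to 746 CPM in a-gp120 and 293 to 398 CPM in a-IL34 isolates. The neutrophil and monocyte sum was 46.1 to 303 CPM with a-gp120 and 147 to 404 CPM with a-IL34, and that of 6 choroid plexus markers was 5.12 to 7.44 CPM and 5.01 to 2095 CPM. Their part in the members' values was not tested.

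Csf1r in these isolates was at 50.4% of a-gp120 with a-IL34 (edgeR adjusted p = 0.0749), so ratios to it are no separate evidence on Casp8 or Bid. The log2 ratio of Casp8 to Csf1r in isolates was -5.01 ± 0.0243 with a-gp120 and -4.81 ± 0.0981 with a-IL34 (SD, n = 4 each). That of Bid to Csf1r was -7.10 ± 0.104 and -7.16 ± 0.282 (SD, n = 4 each). Of the pathway lists, the death receptor list had 1 of 8 genes passing as lower, Tnfrsf21, which encodes death receptor 6 (log2 fold change -0.66, SE 0.109, edgeR adjusted p = 0.0491). The Csf1r signalling list had 1 of 17, Pik3cg (-0.96, SE 0.135, edgeR adjusted p = 0.0374), where 0.603% of all genes passed as lower. Bmf, called in KO isolates, had a log2 fold change of -0.37 (SE 0.2, edgeR adjusted p = 0.253) with the antibody.

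In whole forebrain no member passed in either experiment, and most estimates were close to 0. Bcl2a1b was left out by the filter on low counts, so 8 members were tested. In the genotype experiment 0 of 8 passed (edgeR) where 0.62% of 19343 genes did, and 2 were lower at an unadjusted p under 0.05, as were 5.01% of genes. In the antibody experiment 0 of 8 passed where 0.717% of 17143 genes did, and 0 had an unadjusted p under 0.05, where 4.86% of genes had. DESeq2 also called 0 in each. The members' median log2 fold change was -0.03 with deletion and -0.05 with the antibody.

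Casp8 was the member with the largest forebrain estimate. It was at 4.43, 3.97, 4.06 and 4.50 CPM in Het animals 1, 20, 21 and 23 and at 2.64, 3.23 and 3.78 CPM in KO animals 3, 6 and 24. The arms did not overlap, as for 9.05% of genes (5.24% lower), and the counts behind them were 182 to 278 in Het and 80 to 175 in KO. Deletion gave a log2 fold change of -0.44 (SE 0.134, 95% interval -0.73 to -0.15, unadjusted p = 0.00648, adjusted p = 0.348, edgeR). With the antibody it was -0.35 (SE 0.184, adjusted p = 0.999, edgeR), with 4.89 to 5.52 CPM in a-gp120 and 3.11 to 5.65 CPM in a-IL34 forebrain.

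Bcl2l11 was at 7.62, 7.11, 8.75 and 8.47 CPM in Het and 7.20, 6.70 and 6.10 CPM in KO forebrain, with 1 KO library inside the Het range. Its log2 fold change was -0.23 (SE 0.0999, unadjusted p = 0.0372, adjusted p = 0.639, edgeR). The abundant members were tightly measured here. The 95% intervals of the KO effect ran from -0.14 to 0.04 for Mcl1, from -0.11 to 0.08 for Bcl2l1 and from -0.08 to 0.13 for Bcl2. Those of the antibody effect ran from -0.11 to 0.14, from -0.17 to 0.18 and from -0.25 to 0.16. Bid had a log2 fold change of 0.07 (95% interval -0.12 to 0.26) with deletion and -0.11 (-0.43 to 0.20) with the antibody. Bax and Bak1 lay between -0.09 and 0.02 over both experiments.

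**Figure D4:**
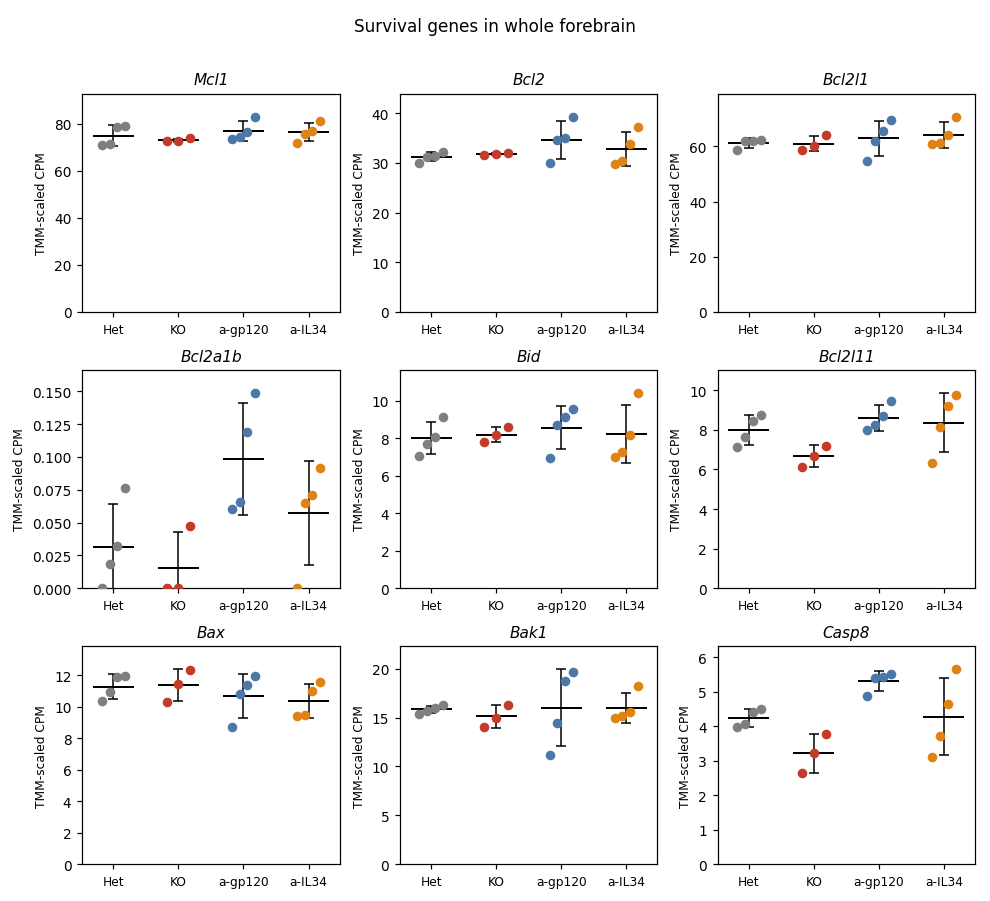
TMM-scaled CPM of the 9 genes in each whole-forebrain library (points) by arm, with the arm mean (line) and SD (bar). Casp8 is the gene whose KO libraries all lie below its Het libraries; Bcl2a1b has 0 to 9 counts per library.

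Csf1r and the microglia markers were lower in the same forebrain libraries. The median microglia sum was 243.3 CPM in Het and 117.5 CPM in KO, 432.4 CPM with a-gp120 and 182.3 CPM with a-IL34, and 7 of 9 markers passed in KO and 8 of 9 with the antibody. Of the Csf1r signalling list 7 of 17 genes passed as lower in KO forebrain, where 0.615% of all genes did. They include Il34, the deleted gene itself, and Csf1r, which is also 1 of the 9 markers. Inpp5d was among them too (log2 fold change -0.82, SE 0.0877). With the antibody 3 of 17 passed as lower, Csf1r again among them, where 0.525% of all genes did, with Inpp5d at -0.90 (SE 0.105). No gene of the other death and survival lists passed in forebrain (edgeR). In KO forebrain 3 of 8 death receptor genes were lower at an unadjusted p under 0.05, Fas (-0.66), Cflar (-0.22) and Tnfrsf1a (-0.39), and 1 of 5 BH3-only genes, Bmf (-0.60), where 5.01% of all genes were lower at that limit. With the antibody the forebrain log2 fold changes were 0.19 (SE 0.242) for Fas, -0.29 (SE 0.0893) for Cflar, -0.19 (SE 0.142) for Tnfrsf1a and -0.43 (SE 0.167) for Bmf. The difference between the experiments did not pass for Fas (edgeR unadjusted p = 0.0111, adjusted p = 1.00).

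**Figure D5:**
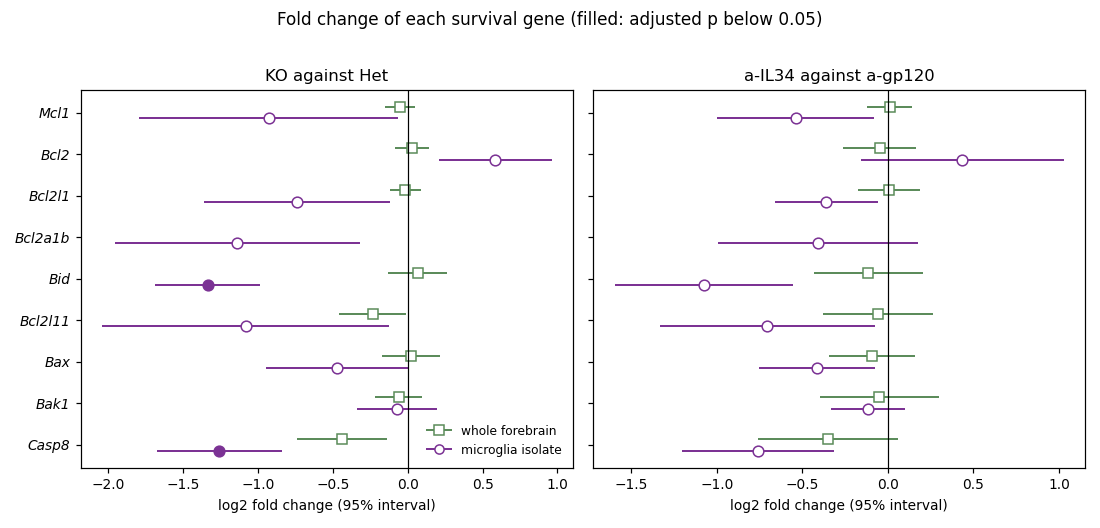
Log2 fold change of each survival gene with its 95% interval in forebrain (squares) and in the isolates (circles), for deletion (left) and antibody (right); filled symbols passed at an adjusted p under 0.05. Only Bid and Casp8 in KO isolates are filled, forebrain points lie near 0 except for Casp8, and Bcl2 in isolates lies to the right of 0.

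The interaction of tissue with deletion was fitted over the 14 libraries of the genotype experiment. This main fit held no term for the animal, so both libraries of a mouse were treated as separate. Bid passed, with a difference of log2 fold changes (isolate minus forebrain) of -1.37 (SE 0.169, edgeR adjusted p = 0.00845). It was the 1 of 9 members to do so, where 2.98% of 20107 genes passed. With the animal as a replicate block Bid had -1.37 and an adjusted edgeR p of 0.0852, and 0 members passed. Leaving out 1 animal kept Bid past the threshold only without Het 1 or Het 21 (highest adjusted p 0.278). Casp8 had -0.79 (SE 0.229, edgeR adjusted p = 0.0746) and Bcl2 0.60 (SE 0.159, edgeR adjusted p = 0.0639). The other members had adjusted edgeR p of at least 0.127. In the antibody experiment 0 of 9 members passed (edgeR), where 0.0924% of 18399 genes did. Bid came nearest with -0.98 (SE 0.289, edgeR adjusted p = 0.155), 3 members had an unadjusted p under 0.05, where 21.1% of genes had, and DESeq2 called 1, where it called 5.94% of genes.

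The deletion effect and the antibody effect were compared in 1 fit over the 15 libraries of a tissue. Their control arms were not alike, since Het mice carry 1 mutant copy of Il34. The median microglia sum in forebrain was 243.3 CPM in Het and 432.4 CPM with a-gp120. Like fold changes are therefore not like levels, and the part of the controls in the difference was not tested. No member passed the test of this difference in either tissue (edgeR, 0 of 8 in forebrain and 0 of 9 in the isolates), where 0.0101% of 19724 and 0% of 18732 genes passed. The count was also 0 by DESeq2 and by the unadjusted p, under which 3.07% and 3.95% of genes fell. In the isolates the difference (deletion minus antibody) was -0.24 for Bid (95% interval -0.84 to 0.36), -0.49 for Casp8 (-1.07 to 0.10) and 0.18 for Bcl2 (-0.49 to 0.85). In forebrain the difference was -0.10 for Casp8 (-0.59 to 0.40) and 0.17 for Bid (-0.18 to 0.53).

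The genes with the most similar profile over all 30 libraries were named by the mean absolute difference of centred log2 CPM, among 16047 genes with a mean of at least 1 CPM. For Casp8 they were P2rx7 (0.137), an ATP-gated channel of microglia, and F11r (0.144). For Bid they were Whrn (0.13) and Sirpa (0.139), which encodes a receptor that binds CD47. Bcl2l11 lay nearest to Nfkb1 (0.135) and Sgpl1 (0.137), Mcl1 to Scpep1 (0.115) and Dusp16 (0.117), and Bcl2 to 9230114K14Rik (0.0924) and Tspan3 (0.0926). Bcl2l1 lay nearest to Brpf1 (0.0781), Bax to Mex3d (0.0969) and Bak1 to Rnpepl1 (0.0907). Bcl2a1b, with its low counts, had no gene closer than Rin3 (0.286). The 30 libraries share their tissue contrast.

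The annotated spans of some members overlap other genes, and reads shared between them were not measured. The last exons of Bid (chr6:120891930-120916853, minus strand, GRCm38) overlap Bcl2l13 on the other strand, which had 23989 counts in the isolates against 10573 of Bid, and Bcl2l13 itself did not pass in KO isolates (log2 fold change 0.09, SE 0.111, edgeR adjusted p = 0.583). Bcl2a1b (chr9:89199209-89207827, plus strand) shares 401 exon bases with Gm29094 on the same strand, with 392 counts in the isolates against 880. Casp8 (chr1:58795374-58847503, plus strand) holds only Gm37760, listed with 0 counts. Bak1 lies inside Ggnbp1 and Bax overlaps Gm45808, each with few counts, and Bcl2l1, Bcl2l11 and Mcl1 overlap no other gene.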

How the data were processed

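The values used are whole-number counts per gene, deposited by the authors without normalisation. Per the submitters' processing notes, STAR 2.7.5c, featureCounts 1.6.3, R 4.4.0 and GRCm38 were used, and strand use is not given in the sources used here. The Length deposited by the authors, a unit outside the usual ones, was equal to the gene span with introns in GENCODE M21 for 51183 of 51498 matched identifiers, so counts may hold intronic and overlapping reads. A deposited sample sheet gives animal numbers, which with sex matched the labels in 30 of 30 libraries, and 6 count columns without a labelled sample were not used.

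All tests on these counts used edgeR 4.0.16 under R 4.3.3 (quasi-likelihood F test, TMM, filterByExpr, sex as covariate) over all genes, with Benjamini-Hochberg adjustment at 0.05, and the standard error was the log2 fold change over the square root of F. The fit was tested on simulated data with known changes. It recovered their direction, and the share of false calls was above the adjusted limit for KO against Het in both tissues and for the contrast of tissues. Alternatives were DESeq2 1.42.0, RLE scaling, no filter, no sex terms, a fit over 15 libraries, a replicate block and leaving out each animal. Forebrain and isolate libraries of an animal are paired by its number in the labels and sample sheet (median correlation of deviations 0.156, range 0.0608 to 0.24, above 0.1 in 12 of 15 animals). The main fits across tissues did not use this pairing, and only the replicate block did. None of 42 pairs of libraries within a group agreed within sampling noise (lowest chi-square per degree of freedom 5.48). The labels make each animal a separate sample.

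All 9 members are named, with list genes that passed (at most 4 per list), overlapping genes, copies of Bcl2a1b and nearest profiles. Other list genes named as examples were chosen after their values were seen. The members and lists were chosen with earlier results of these data known. The summary of the list of further caspase genes is not reported here.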

Additional observations from a re-analysis of the deposited data

Results flagged for a closer look

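Over 54 groups of 4 libraries of the members, 2 had a library far from the others, and chance gives about 1 in 20 groups. Bak1 in forebrain was at 18.3 CPM in a-IL34 animal 2, against 15.5 CPM in the next library. Bcl2l1 in forebrain was at 58.7 CPM in Het animal 21, below 61.9 CPM in the next library. Both lie within the range of other arms of their tissue.

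Bid was the member whose deletion effect differed between the tissues by a test of the difference, at -1.37 on the log2 scale (isolate minus forebrain, edgeR adjusted p = 0.00845), among 35 such difference tests over the members. It was lower in 3 of 3 KO isolates than in every Het isolate, while the forebrain arms overlapped. The call was lost with the replicate block (adjusted p = 0.0852).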

How the results depend on the processing

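Of 1090 single values of the members under the alternatives, 989 kept their direction and their side of the threshold, 16 fell short of it, 44 passed it anew and 41 changed sign, 0 of these past the threshold. The counts of members that passed were unchanged under the alternatives in forebrain (0 in each experiment), in the contrast of tissues (9) and between the experiments (0). In KO isolates the count of 2 became 5 with DESeq2, 4 in the fit over 15 libraries, 3 without sex terms, where Bcl2 also passed, and 0 to 7 when 1 animal was left out. In a-IL34 isolates the count of 0 became 2 with DESeq2, without the filter, without sex terms and in the fit over 15 libraries, and ran from 0 to 7 when 1 animal was left out. For the tissue difference of the deletion effect the count of 1 became 3 with DESeq2 and without sex terms, 0 with the replicate block, and 0 to 5 when 1 animal was left out. For that of the antibody effect the count of 0 became 1 with DESeq2 and without the filter, stayed at 0 with the replicate block, and ran from 0 to 5 when 1 animal was left out. The replicate block changed no other call. The cause of these moves was not tested.

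The values that changed sign all lay near 0 or had few counts. When 1 animal was left out, the KO effect in forebrain ran from -0.058 to 0.072 for Bax, -0.00017 to 0.055 for Bcl2 and -0.039 to 0.0026 for Bcl2l1, and in isolates from -0.12 to 0.014 for Bak1. The antibody effect in forebrain ran from -0.16 to 0.091 for Bak1, -0.038 to 0.068 for Bcl2l1, -0.14 to 0.056 for Bcl2l11 and -0.0071 to 0.0304 for Mcl1, which was -0.014 without sex terms. The tissue difference of the deletion effect ran from -0.058 to 0.12 for Bak1, which was -0.024 with DESeq2 and -0.015 with RLE scaling, and from -0.69 to 2.63 for Bcl2a1b. That of the antibody effect ran from -0.21 to 0.066 for Bak1. The difference between the experiments ran in forebrain from -0.16 to 0.079 for Bak1, -0.087 to 0.029 for Bcl2l1 and -0.22 to 0.075 for Casp8, and in isolates from -0.19 to 0.059 for Bax and -0.039 to 0.28 for Bcl2. Leaving out KO 3 or a-IL34 11 also takes 1 sex out of the arm. Few counts limit Bcl2a1b in forebrain, where its sign cannot be read.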
